A study of Mus musculus with 72 samples.

Results

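The genes described here are the 32 listed components of the machinery by which cells sense amino acids and set the activity of mechanistic target of rapamycin complex 1 (mTORC1). They were taken by symbol from a count table of mouse liver RNA sequencing with 50307 usable genes, and all 32 had enough counts to be tested among 14954 genes. The 72 libraries form 12 groups of 6, made of 2 strains, both sexes and 3 diets. DBA/2J (DBA) males, DBA females, C57BL/6J (B6, spelled C56BL/6J in the strain label) males and B6 females were each given a Western diet with low, control or high isoleucine content. Diets lasted 12 weeks, and livers were taken after a 16 h fast. Every group received a Western diet, so no group shows a liver on another diet, and every liver was fasted. The labels give an age of 18 weeks, name 18 weeks as the age at the start in one field and 6 weeks in the design text. No label states that the libraries are separate animals, so p-values measure the spread between libraries, which may be in part technical.

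mTORC1 is a kinase complex at the lysosome that promotes protein synthesis and restrains autophagy when nutrients are plentiful. Amino acids act through pairs of Rag GTPases held on the lysosome by the Ragulator complex. GATOR1 switches the Rag pair off, GATOR2 restrains GATOR1, and folliculin with its FNIP partners switches the RagC or RagD partner to the active state. Some sestrins report leucine and SLC38A9 reports arginine to this system, while growth factor signals arrive through TSC and the GTPase RHEB. In liver the pathway links feeding to protein and lipid synthesis. The files hold RNA levels only, and measure neither the proteins nor the activity of the kinase.

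Depth ran between 13.0 and 51.1 in units of 1e6 counts per library, with a median of 24.1. Levels are counts per 1e6 of the scaled library (CPM), and levels of different genes are compared only per kilobase of exon. Tests are edgeR's quasi-likelihood tests in a single fit of all libraries, log2 fold changes carry standard errors (SE), and adjusted p is the Benjamini-Hochberg value over all 14954 genes, called below 0.05. Summed levels of 10 hepatocyte markers lay between 62000 and 139000 CPM over all libraries of this liver series. Libraries that stood furthest from their own group were B6 male high library 1, DBA male high library 3 and B6 female control library 4, with median correlations of 0.971, 0.972 and 0.974 with the rest of their group. Next came B6 male control library 1 (0.978) and B6 male high libraries 2 and 6 (0.980 and 0.983). In bulk tissue, fewer cells of a type and less RNA per cell cannot be told apart.

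Upstream sequences of 3 members are shown, and no link between these sequences and the responses was tested. Nprl3 was picked for the largest positive change on low isoleucine, and Flcn for opposite directions of response in males and females. Lamtor4 was picked because it held the E-box core CACGTG at 2 positions. CACGTG is the core of the element bound by the lysosomal regulators TFEB and TFE3. Each line gives the 250 bases before the gene's RefSeq start on build GRCm38.p6, 5′ to 3′ on the gene's strand, with matches to CACGTG in capitals.
Nprl3, minus strand, chr11:32267708-32267957: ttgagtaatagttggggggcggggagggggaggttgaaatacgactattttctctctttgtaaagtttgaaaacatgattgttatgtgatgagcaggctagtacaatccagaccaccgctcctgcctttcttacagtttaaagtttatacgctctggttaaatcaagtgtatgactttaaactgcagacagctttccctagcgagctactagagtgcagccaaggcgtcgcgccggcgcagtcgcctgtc
Flcn, minus strand, chr11:59810040-59810289: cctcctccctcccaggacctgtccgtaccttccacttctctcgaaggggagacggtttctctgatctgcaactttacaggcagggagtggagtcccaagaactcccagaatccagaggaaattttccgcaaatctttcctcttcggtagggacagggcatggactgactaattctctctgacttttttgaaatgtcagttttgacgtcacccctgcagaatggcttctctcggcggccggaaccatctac
Lamtor4, plus strand, chr5:138255232-138255481: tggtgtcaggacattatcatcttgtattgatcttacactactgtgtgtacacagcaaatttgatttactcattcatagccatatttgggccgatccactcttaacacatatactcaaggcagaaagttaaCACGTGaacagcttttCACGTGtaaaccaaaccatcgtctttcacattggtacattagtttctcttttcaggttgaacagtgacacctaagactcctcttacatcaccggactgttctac

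In windows of 300 bases (250 before and 50 after the RefSeq start), read on both strands, CACGTG was found for 5 of the 28 members with a RefSeq window. These were Fnip1, Lamtor1, Lamtor4, Rheb and Rragc, and the share over all 27025 genes with a window was 8.09%. The motif GTAAACA, of the FOXO type, matched among members only for Sesn1, against 4.05% of all genes. TGANNCAA, of the C/EBP-ATF type, matched among members only for Lamtor5, against 15.2% of all genes. Of the 5 members with CACGTG, Lamtor4 alone passed the test on low isoleucine. These matches describe letters in a window and are not evidence of binding.

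All 32 members were read in liver, at levels that spanned a wide range. Per kilobase of exon, over the 24 control-diet libraries, Ragulator genes stood at the top, with medians of 35.5 CPM per kb for Lamtor2, 29.8 for Lamtor4, 17.7 for Lamtor5 and 15.1 for Lamtor1. Rraga followed with 13 CPM per kb and Sec13 with 12.7, and their ranges overlapped (9.96 to 15.1 and 8.13 to 17.5). At the low end stood Depdc5 with 0.855, Rictor with 0.815, the lysosomal arginine sensor gene Slc38a9 with 0.638 and Rragd with 0.365 CPM per kb. The fifth Ragulator gene, Lamtor3, did not share the high level of the other 4 and had a median of 2.26 CPM per kb. The kinase gene Mtor had 5.54, its scaffold partner Rptor 2.45 and the S6 kinase gene Rps6kb1 3.06 CPM per kb. The ranges of neighbours in this order overlapped in every case.

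Some members were far steadier across the 12 groups than others. The ratio of the highest to the lowest group mean was 1.12 for Rragc, 1.22 for Seh1l and 1.29 for both Tsc2 and Wdr24. It reached 2.89 for Deptor, 2.58 for Rragd, 2.22 for Fnip2, 2.08 for Nprl3 and 2.04 for Rictor. The within-group coefficient of variation, as pooled SD over the mean of the group means, was 9.11% for Seh1l. It was 29.1% for Rragd, the member with the fewest counts.

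On low isoleucine, averaged over the 4 strain and sex classes, changes were small, and genes that passed ran both ways within the kinase core, GATOR1 and GATOR2. Of 32 members 14 passed the test, 5 higher and 9 lower, against 37.8% of all genes tested. Fnip2, a partner of folliculin, had the largest fall, at -0.48 ± 0.10 SE on the log2 scale (adjusted p = 5.9e-05). The 3 genes of GATOR1 all changed, but Nprl3 rose while Depdc5 and Nprl2 fell. The median absolute log2 fold change of the members was 0.111, below the 0.164 of all genes, and the median signed change was -0.01. The log2 fold change had the same sign in all 4 classes for 17 members, 7 positive and 10 negative, or 53.1% of them, against 36.3% of all genes.

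**Figure D1:**
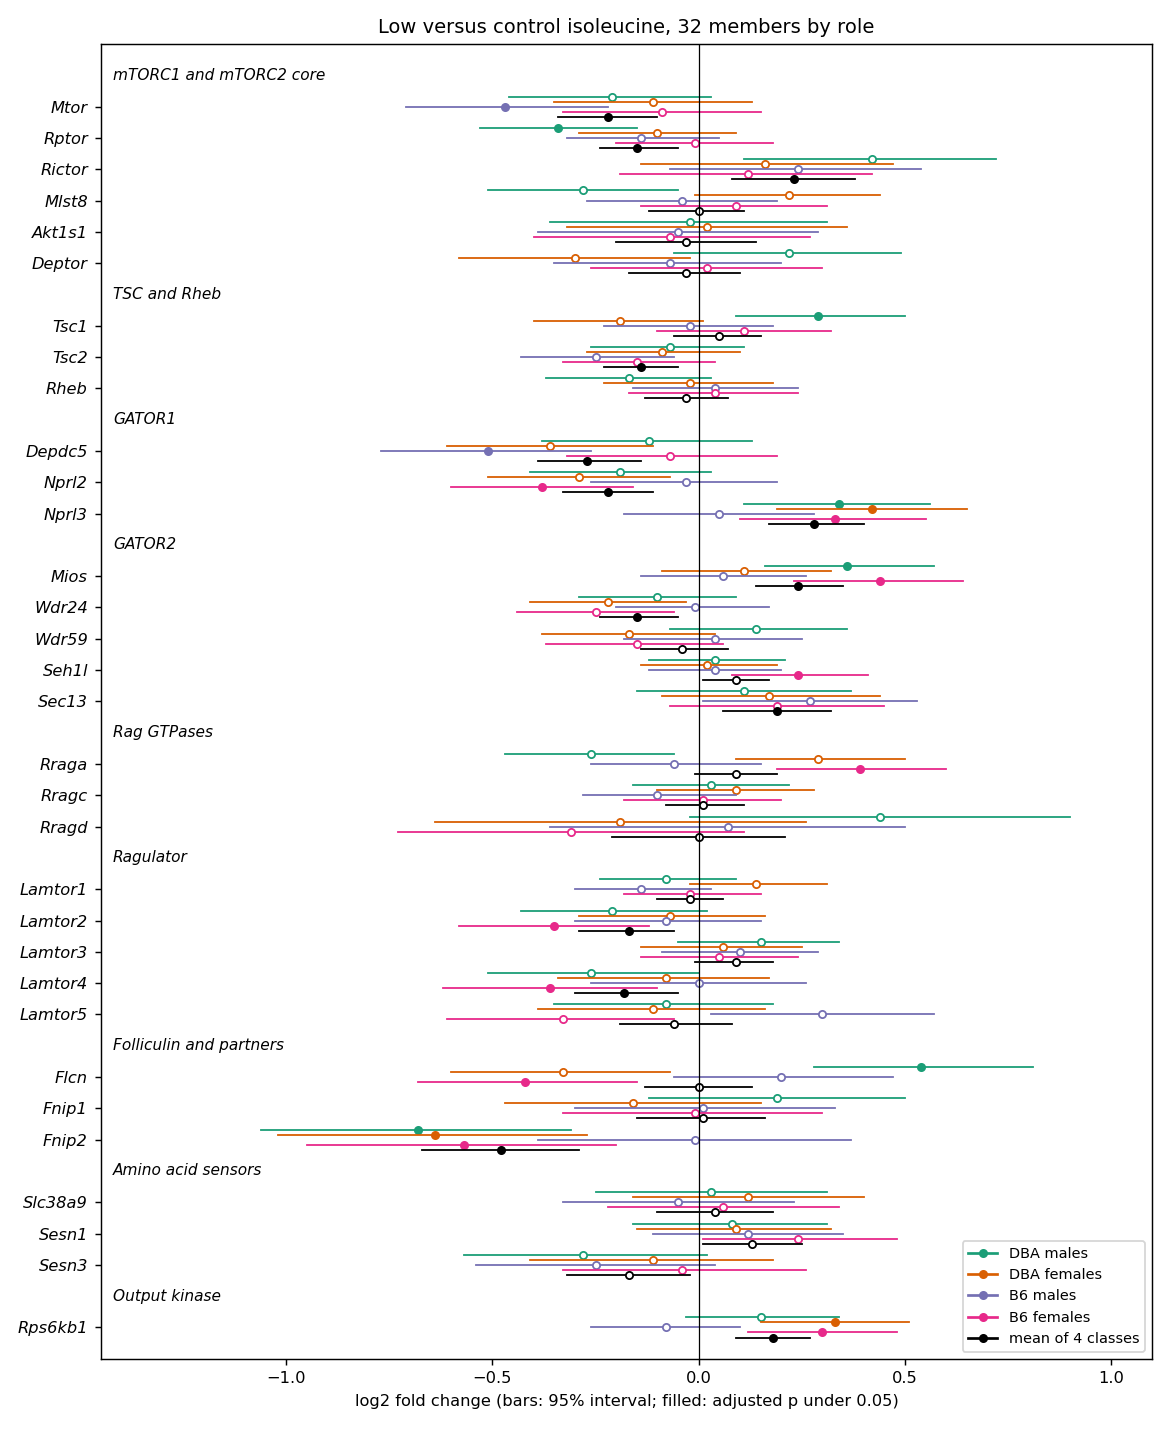
Log2 fold change of low over control isoleucine (x axis) for the 32 members, grouped by role down the page, in DBA males, DBA females, B6 males, B6 females and as the mean of the 4 classes. Points are estimates, bars 95% intervals and filled points have an adjusted p under 0.05; in the mean, Fnip2 lies lowest at -0.48 and Nprl3 highest at 0.28.

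Among the core subunits of the kinase complexes, Mtor and Rptor fell and Rictor rose on low isoleucine. RPTOR is the scaffold that brings substrates to mTORC1, and RICTOR is its counterpart in mTORC2, the complex that phosphorylates AKT. The mean log2 fold changes were -0.22 ± 0.06 for Mtor (adjusted p = 0.0031, below the control mean in 21 of 24 libraries), -0.15 ± 0.05 for Rptor (adjusted p = 0.011, 19 of 24) and 0.23 ± 0.08 for Rictor (adjusted p = 0.013, above it in 20 of 24). The shared subunit gene Mlst8 and the inhibitor genes Akt1s1 (PRAS40) and Deptor did not pass, with log2 fold changes of -0.00, -0.03 and -0.03.

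In DBA males, Mtor lay at 47.8 to 62.7 (median 54.9) on low, 54.4 to 77.9 (median 61.7) on control and 59.3 to 109 (median 69.2) on high isoleucine, in CPM. DBA females had Mtor at 47.1 to 66.5 (median 52.8) on low, 48.6 to 76 (median 58.4) on control and 51.9 to 67.9 (median 59.5) on high. These groups overlapped across diets. In B6 males, Mtor was at 37.4 to 44.8 (median 39.3) on low, 49.2 to 68 (median 54.1) on control and 37.9 to 58.9 (median 50.8) on high, and in B6 females at 39.8 to 47.2 (median 43) on low, 36.1 to 60.5 (median 44.2) on control and 41.7 to 55.8 (median 46) on high. All 6 B6 male libraries on low isoleucine lay below all 6 on control, a fall of 27.6% (log2 fold change -0.47 ± 0.12, adjusted p = 0.016). Without B6 male control library 2 the adjusted p was 0.06 (log2 fold change -0.40).

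Rictor in DBA males lay at 14.3 to 25.1 (median 20.1) on low, 12.1 to 17.7 (median 13.9) on control and 12.4 to 20.9 (median 17.3) on high, and in DBA females at 14.4 to 21.2 (median 17) on low, 12.7 to 19 (median 15.8) on control and 13.1 to 21.4 (median 16) on high. In B6 males Rictor was at 13.8 to 18.3 (median 16.4) on low, 11.5 to 17.2 (median 13.5) on control and 4.6 to 12 (median 11) on high, and in B6 females at 11.2 to 14 (median 11.4) on low, 9.09 to 16.8 (median 9.85) on control and 8.88 to 14 (median 11.7) on high. On low isoleucine the medians were above control in all 4 classes, though the ranges overlapped in each and no single class passed. Rptor passed in DBA males, where the log2 fold change was -0.34 ± 0.10 (adjusted p = 0.0086).

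The TSC complex, which switches RHEB off, showed 1 change in the mean of the classes. Tsc2, which encodes its catalytic subunit, fell by 9.2% (-0.14 ± 0.05, adjusted p = 0.016), whereas Tsc1 (0.05) and Rheb (-0.03) did not pass. DBA males had Tsc1 at 24.2 to 38.3 (median 35.4) on low, 24.2 to 29.5 (median 26) on control and 26 to 36.2 (median 29) on high, and DBA females at 22.9 to 38 (median 33) on low, 32.2 to 42.3 (median 37) on control and 29.6 to 42.6 (median 38) on high. B6 males had Tsc1 at 22.3 to 30 (median 28.9) on low, 23.1 to 31.1 (median 28.7) on control and 21.6 to 26.2 (median 22.7) on high, and B6 females at 21.8 to 33.1 (median 25.2) on low, 22.4 to 27.2 (median 23.6) on control and 22.5 to 28.6 (median 27) on high. Tsc1 passed in DBA males only (0.29 ± 0.11, adjusted p = 0.043), and 4 of the 6 low libraries lay above the control mean. In the other classes its values were -0.19, -0.02 and 0.11, in DBA females, B6 males and B6 females, and the difference between classes was tested only between strains and sexes, where Tsc1 did not pass. Tsc2 shares 7.2% of its exon length with Pkd1 on the opposite strand. Pkd1 rose by 0.27 ± 0.06 on low isoleucine (adjusted p = 9.9e-05), the other way from Tsc2, and the strand setting of the authors' counting is not given in the sources used here.

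GATOR1 is the brake of the pathway, and all 3 of its genes passed the test in the mean of the classes, against 37.8% of all genes. Nprl3 rose by 21.6% (log2 fold change 0.28 ± 0.06, adjusted p = 8.2e-05, 22 of 24 libraries above the control mean). Depdc5, the subunit that contacts the Rag GTPases, fell by 16.8% (-0.27 ± 0.06, adjusted p = 7.2e-04, 22 of 24 below). Nprl2, which carries the catalytic residue of the complex, fell by 14.4% (-0.22 ± 0.06, adjusted p = 0.0011, 20 of 24 below). The sign of each was the same in all 4 classes.

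In DBA males, Nprl3 lay at 18 to 29.3 (median 22.2) on low, 17.1 to 19.1 (median 18) on control and 16.2 to 23.3 (median 17.5) on high, and in DBA females at 21.6 to 34.5 (median 24.9) on low, 16.7 to 24.7 (median 19.7) on control and 14.5 to 23.1 (median 19.6) on high. All 12 DBA low libraries lay above the mean of their control group, but the low and control ranges overlapped in both sexes. DBA male low libraries 1, 2 and 5, at 18, 18.1 and 19.1 CPM, lay at the level of control. Low libraries 3, 4 and 6 of DBA males, at 25.3, 26.6 and 29.3 CPM, lay above it. In B6 males Nprl3 was at 12 to 15.4 (median 13.6) on low, 9.68 to 15.6 (median 13.6) on control and 12.8 to 17.8 (median 15.1) on high, and in B6 females at 14.6 to 18.1 (median 16.1) on low, 12.2 to 14.1 (median 12.6) on control and 10.8 to 15.2 (median 13) on high. B6 females on low isoleucine all lay above those on control, while B6 males overlapped fully. The log2 fold changes were 0.34 ± 0.12 in DBA males, 0.42 ± 0.12 in DBA females, 0.05 in B6 males and 0.33 ± 0.12 in B6 females, and passed in all but B6 males. Without B6 female low library 5, Nprl3 no longer passed in B6 females (adjusted p = 0.091, log2 fold change 0.29). Nprl3 shares 17.7% of its exon length with Mpg on the opposite strand. Mpg stood at -0.03 ± 0.05 on low isoleucine (adjusted p = 0.71), and the part of shared bases in the Nprl3 value was not tested.

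Depdc5 in DBA males lay at 7.14 to 11.6 (median 8.37) on low, 7.19 to 11.7 (median 9.43) on control and 7.02 to 11.3 (median 9.99) on high, and in DBA females at 7.28 to 9.46 (median 8.65) on low, 9.07 to 12.1 (median 11.6) on control and 10 to 12.6 (median 11.1) on high. B6 males had Depdc5 at 7.69 to 10 (median 8.57) on low, 9.62 to 14.7 (median 12.2) on control and 5.02 to 12.8 (median 9.51) on high, and B6 females at 7.94 to 10.4 (median 8.77) on low, 8.22 to 10.1 (median 9.5) on control and 8.11 to 12.1 (median 10.2) on high. The fall passed in B6 males alone (log2 fold change -0.51 ± 0.13, adjusted p = 0.01), where a single control library reached into the low group. Nprl2 in DBA males lay at 12.2 to 15.8 (median 14.6) on low, 14.5 to 17.8 (median 16.4) on control and 13.7 to 19.5 (median 15.4) on high, and in DBA females at 9.03 to 13.7 (median 10.2) on low, 12.4 to 14 (median 13.2) on control and 12.1 to 16.1 (median 13.6) on high. For B6 males, Nprl2 lay at 10.8 to 15.1 (median 13.3) on low, 11.5 to 17.8 (median 12.8) on control and 9.8 to 19.4 (median 13.8) on high, and for B6 females at 9.51 to 12.8 (median 12.1) on low, 12.9 to 19.6 (median 14.3) on control and 11.5 to 13.6 (median 12.1) on high. In B6 females the low group lay wholly below the control group, at -0.38 ± 0.11 (adjusted p = 0.012), while in the other classes Nprl2 did not pass.

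**Figure D2:**
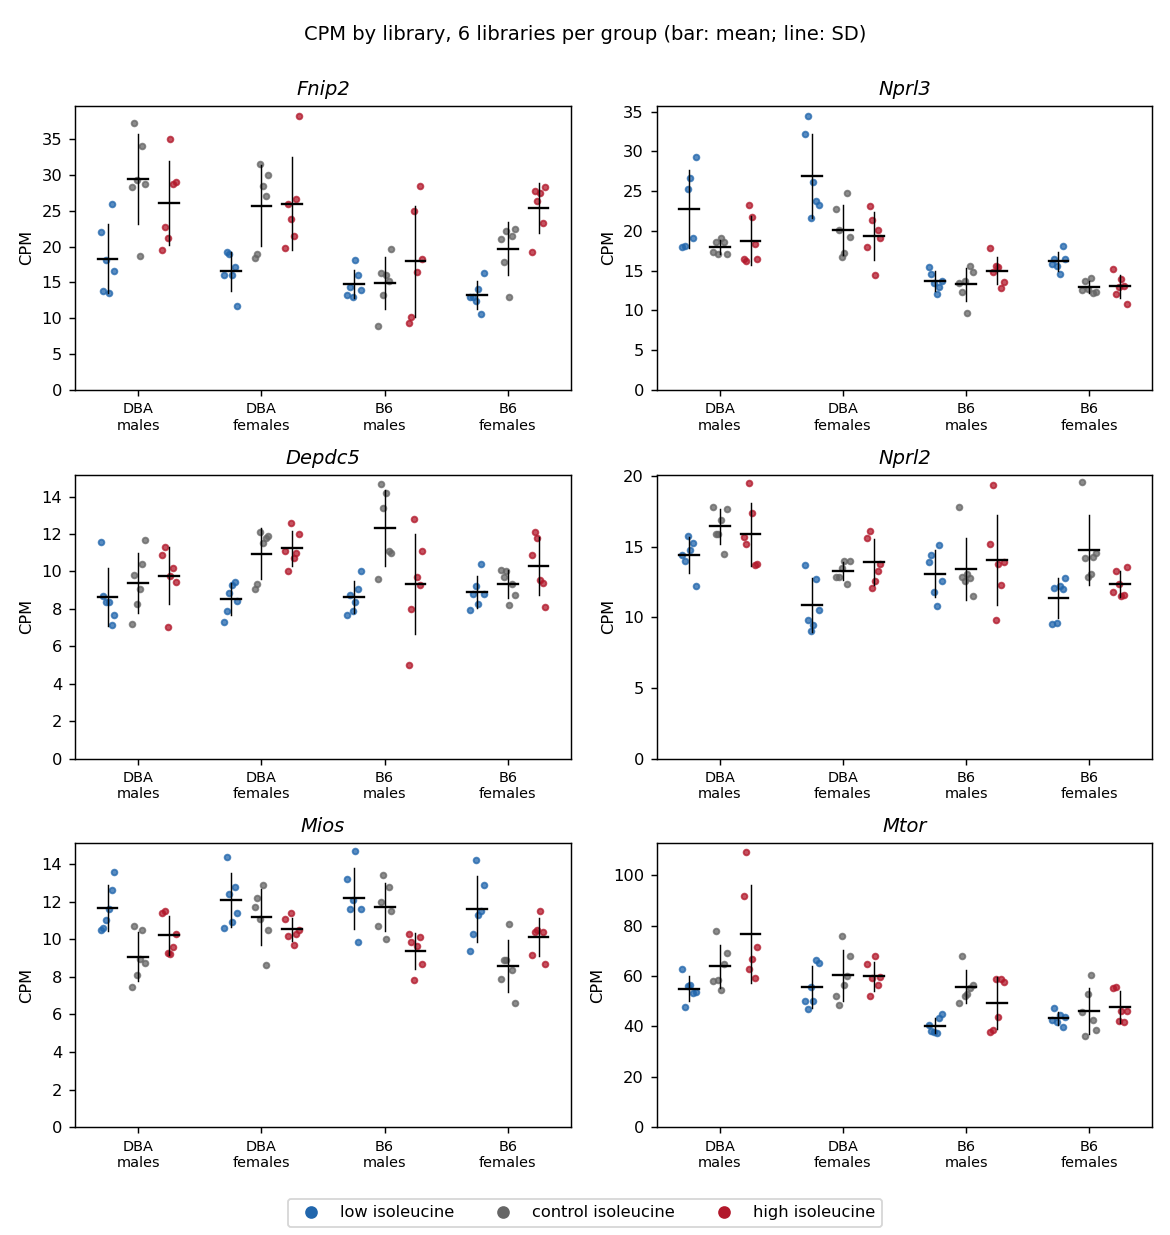
CPM by library (y axis, from 0) for Fnip2, Nprl3, Depdc5, Nprl2, Mios and Mtor in the 4 classes (x axis), with low, control and high isoleucine side by side; each point is a library, bars are means of 6 and lines their SD. Fnip2 is lower on low than on control isoleucine in DBA males, DBA females and B6 females, and its B6 male groups coincide (medians 14.2 and 15.6 CPM).

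GATOR2, the complex that sestrins bind, had 2 genes higher and 1 lower, against 37.8% of all genes called in either direction. Mios rose by 18.3% (log2 fold change 0.24 ± 0.05, adjusted p = 1.5e-04, 19 of 24 libraries above the control mean). Sec13, whose product also works in COPII vesicles and the nuclear pore, rose by 13.8% (0.19 ± 0.07, adjusted p = 0.022, 18 of 24). Wdr24 fell by 9.6% (log2 fold change -0.15 ± 0.05, adjusted p = 0.013, 19 of 24 below). Wdr59 (-0.04) and Seh1l (0.09, adjusted p = 0.087) did not pass. Seh1l passed in B6 females (0.24 ± 0.08, adjusted p = 0.028), but not without B6 female low library 5 (adjusted p = 0.058), and in the mean without B6 female control library 4 (adjusted p = 0.048).

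DBA males had Mios at 10.5 to 13.6 (median 11.3) on low, 7.45 to 10.7 (median 8.84) on control and 9.2 to 11.5 (median 9.95) on high, and DBA females at 10.6 to 14.4 (median 11.9) on low, 8.64 to 12.9 (median 11.4) on control and 9.7 to 11.4 (median 10.4) on high. In B6 males Mios was at 9.87 to 14.7 (median 11.9) on low, 10 to 13.4 (median 11.7) on control and 7.82 to 10.3 (median 9.73) on high, and in B6 females at 9.38 to 14.2 (median 11.4) on low, 6.59 to 10.8 (median 8.64) on control and 8.69 to 11.5 (median 10.4) on high. DBA males and B6 females passed, at 0.36 ± 0.11 (adjusted p = 0.011) and 0.44 ± 0.11 (adjusted p = 0.0018), and in each the ranges partly overlapped. DBA females (0.11) and B6 males (0.06) did not pass. Sec13 in DBA males lay at 45.8 to 62.1 (median 48.5) on low, 41 to 55.6 (median 45.8) on control and 48.3 to 71.3 (median 58) on high, and in DBA females at 23.9 to 45.9 (median 36.3) on low, 25.9 to 38.6 (median 32) on control and 27.2 to 50.4 (median 40.6) on high. For B6 males Sec13 was at 41.5 to 62.1 (median 50.5) on low, 33.7 to 55.2 (median 39) on control and 40.2 to 42.3 (median 41.6) on high, and for B6 females at 37 to 59 (median 52.8) on low, 38.4 to 51.1 (median 44.2) on control and 35 to 47.5 (median 38.4) on high. No single class passed for Sec13, and all low and control ranges overlapped. Wdr59 in DBA males lay at 8.71 to 12.5 (median 10.8) on low, 7.57 to 12.3 (median 9.38) on control and 7.82 to 12.6 (median 10.9) on high, and in DBA females at 7.89 to 12 (median 8.79) on low, 9.72 to 11.1 (median 10.3) on control and 8.92 to 12 (median 10.8) on high. For B6 males Wdr59 was at 8.5 to 11.5 (median 10.2) on low, 8.25 to 11.9 (median 9.52) on control and 6.58 to 9.23 (median 8.51) on high, and for B6 females at 6.39 to 8.17 (median 7.18) on low, 7.14 to 8.75 (median 8.05) on control and 8.06 to 11.4 (median 9.75) on high. Its low and control groups overlapped in every class.

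None of the 3 Rag GTPase genes passed in the mean of the classes, where log2 fold changes were 0.09 for Rraga, 0.01 for Rragc and 0.00 for Rragd. Ragulator genes Lamtor2 and Lamtor4 fell, each by 11.4% (log2 fold changes -0.17 ± 0.06 and -0.18 ± 0.07, adjusted p = 0.013 and 0.028). Lamtor1 (-0.02), Lamtor3 (0.09) and Lamtor5 (-0.06) did not pass. Lamtor3 passed without B6 male control library 1 (0.12, adjusted p = 0.048), and Lamtor4 did not pass without the filter on low counts (-0.17, adjusted p = 0.056). Lamtor2 in DBA males lay at 35.6 to 51.7 (median 46.3) on low, 42.3 to 62.9 (median 51.3) on control and 40 to 71.2 (median 45.4) on high, and in DBA females at 30.4 to 46 (median 37.7) on low, 34.3 to 50.1 (median 39.3) on control and 36.9 to 44.9 (median 40.7) on high. In B6 males Lamtor2 was at 33.7 to 39.5 (median 34.4) on low, 32.1 to 45.9 (median 35.5) on control and 37.1 to 58.8 (median 48) on high, and in B6 females at 31.5 to 38 (median 35.1) on low, 38.6 to 51.9 (median 43.8) on control and 32.2 to 48.4 (median 39.2) on high. B6 females passed, with the low group wholly below the control group (-0.35 ± 0.12, adjusted p = 0.024). Lamtor4, whose upstream sequence is printed above, lay in DBA males at 39.8 to 52.2 (median 43) on low, 41.7 to 71 (median 51.1) on control and 40.9 to 85.7 (median 47.2) on high, and in DBA females at 28.5 to 43.5 (median 37.3) on low, 28.1 to 47.2 (median 38.1) on control and 35.9 to 43.7 (median 39.1) on high. In B6 males Lamtor4 was at 24.3 to 37.3 (median 29.9) on low, 25.4 to 35.2 (median 31) on control and 33.3 to 51.9 (median 40) on high, and in B6 females at 26.4 to 31.6 (median 30.5) on low, 27.8 to 44.7 (median 39.9) on control and 27.3 to 37.7 (median 33.4) on high. It passed in B6 females (log2 fold change -0.36 ± 0.13, adjusted p = 0.042). Without B6 female low library 5 the adjusted p became 0.054 for Lamtor2 and 0.051 for Lamtor4.

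Fnip2 encodes the partner that carries folliculin to the Rag GTPases and also binds the energy sensor AMPK. DBA males had Fnip2 at 13.5 to 25.9 (median 17.4) on low, 18.7 to 37.2 (median 29) on control and 19.5 to 35 (median 25.8) on high, and DBA females at 11.7 to 19.3 (median 16.6) on low, 18.4 to 31.5 (median 27.8) on control and 19.8 to 38.2 (median 24.9) on high. The low and control groups overlapped in both, in DBA females only at their edges. In B6 males Fnip2 was at 13 to 18.1 (median 14.2) on low, 8.87 to 19.7 (median 15.6) on control and 9.29 to 28.5 (median 17.3) on high, and in B6 females at 10.6 to 16.3 (median 13) on low, 12.9 to 22.5 (median 21.3) on control and 19.3 to 28.3 (median 26.9) on high. The log2 fold change was -0.68 ± 0.19 in DBA males (adjusted p = 0.0081), -0.64 ± 0.19 in DBA females (adjusted p = 0.019) and -0.57 ± 0.19 in B6 females (adjusted p = 0.026). In B6 males the log2 fold change was -0.01, and the differences between strains and between sexes did not pass for Fnip2. Without B6 female low library 5 the B6 female value was -0.52 (adjusted p = 0.068). The related gene Fnip1 did not pass in any class, and its mean log2 fold change was 0.01.

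The sensors and the output kinase gave smaller values. Slc38a9 stood at 0.04, and the sestrin genes Sesn1 at 0.13 (adjusted p = 0.074) and Sesn3 at -0.17 (adjusted p = 0.065), none past the threshold. Sesn1 passed without B6 male control library 6 (log2 fold change 0.15, adjusted p = 0.048). Rps6kb1, which encodes the S6 kinase that mTORC1 phosphorylates, rose by 13.0% (log2 fold change 0.18 ± 0.05, adjusted p = 0.0016, 18 of 24 libraries above the control mean). In DBA females it lay at 32.8 to 37.8 (median 35.2) on low, 23.7 to 31.5 (median 28.4) on control and 24.2 to 30.1 (median 27.8) on high, with the low group wholly above control (0.33 ± 0.09, adjusted p = 0.012). In B6 females it lay at 24 to 32.5 (median 28.2) on low, 19.3 to 25.8 (median 23.8) on control and 21 to 30.5 (median 25.4) on high and also passed (0.30 ± 0.09, adjusted p = 0.015). In DBA males Rps6kb1 was at 23.3 to 35.6 (median 30.7) on low, 24.4 to 29.7 (median 27.5) on control and 21.7 to 30.5 (median 28.2) on high, and in B6 males at 25.1 to 31.2 (median 28) on low, 24.2 to 36.2 (median 28.3) on control and 24.4 to 31.6 (median 29.2) on high. These classes did not pass, with log2 fold changes of 0.15 ± 0.09 and -0.08 ± 0.09 (adjusted p = 0.26 and 0.69), and the difference of the effect, male minus female, was -0.28 ± 0.09 and did not pass (adjusted p = 0.051).

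By class, 6 members passed in DBA males (4 higher, 2 lower, against 17.7% of all genes). In DBA females 3 passed (2 higher, 1 lower, against 11.8%), and in B6 males 2, both lower (against 5%). B6 females had 10 members past the threshold, 5 higher and 5 lower, against 20.8% of all genes. The count in DBA females was 6 without DBA female low library 1, and that in B6 females 6 without B6 female low library 5 or without the filter on low counts. For B6 males the count was 1 without B6 male control library 2. With libraries that share a title number treated as a replicate block, every count was lower. It was then 3 in DBA males, 2 in DBA females, 1 in B6 males and 4 in B6 females. A count per class does not show that classes differ. The difference of the low effect between DBA and B6 was tested directly: by edgeR no member passed, none had an unadjusted p under 0.05, and DESeq2 called 0 as well, against 1.39% of all genes.

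Between the sexes the low effect differed for 2 of 32 members, a share close to the 6.68% of all genes. Folliculin (Flcn), the tumour suppressor that acts on RagC and RagD, was higher on low than on control isoleucine in males and lower in females. The difference of the effect, male minus female, was 0.75 ± 0.13 on the log2 scale (adjusted p = 2.7e-04). Rraga, which encodes the RagA GTPase that GATOR1 acts on, showed the opposite, with a difference of -0.50 ± 0.10 (adjusted p = 0.0017). Averaged over the classes, neither gene passed.

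DBA males had Flcn at 40.3 to 62.8 (median 50.6) on low, 27.1 to 46.3 (median 35.3) on control and 32.3 to 55.8 (median 35.8) on high, and DBA females at 30.3 to 48.3 (median 34.3) on low, 39.3 to 58.4 (median 41.2) on control and 35.1 to 63.2 (median 39.1) on high. B6 males had Flcn at 25 to 33 (median 30.3) on low, 19.3 to 35.1 (median 24.6) on control and 23.5 to 29.3 (median 26.8) on high, and B6 females at 22.9 to 29.7 (median 27) on low, 30.2 to 39.2 (median 35.7) on control and 30.4 to 40.2 (median 32.8) on high. The low effects were 0.54 ± 0.13 in DBA males (adjusted p = 0.0023), -0.33 ± 0.13 in DBA females (adjusted p = 0.094), 0.20 ± 0.13 in B6 males (adjusted p = 0.43) and -0.42 ± 0.13 in B6 females (adjusted p = 0.02). Within each sex the sign was the same in both strains, and the low and control groups separated fully in B6 females. DBA female low library 1, at 48.3 CPM, stood above the other 5 of its group, which reached 36.4 CPM. On the control diet Flcn was 24.9% lower in males than in females (log2 fold change -0.41 ± 0.09, adjusted p = 6.2e-04).

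DBA males had Rraga at 15 to 21.8 (median 17.8) on low, 16.1 to 23.6 (median 22.4) on control and 12.6 to 24.2 (median 21.3) on high, and DBA females at 19.7 to 28.2 (median 23.4) on low, 16.9 to 21.9 (median 18.6) on control and 17.1 to 21.5 (median 19) on high. B6 males had Rraga at 20 to 24.5 (median 21.5) on low, 20 to 24.5 (median 23.1) on control and 19 to 24.8 (median 21) on high, and B6 females at 23.5 to 33.1 (median 25.1) on low, 16.9 to 23.1 (median 19.3) on control and 18.8 to 23.3 (median 20.9) on high. Its low effects were -0.26 ± 0.10 in DBA males (adjusted p = 0.071), 0.29 ± 0.10 in DBA females (adjusted p = 0.056), -0.06 ± 0.10 in B6 males (adjusted p = 0.83) and 0.39 ± 0.10 in B6 females (adjusted p = 0.0046). Every B6 female library on low isoleucine lay above every B6 female control library. Under the alternatives run, the sex difference stayed past the threshold for both genes, at 0.71 to 0.90 for Flcn and -0.54 to -0.46 for Rraga.

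**Figure D3:**
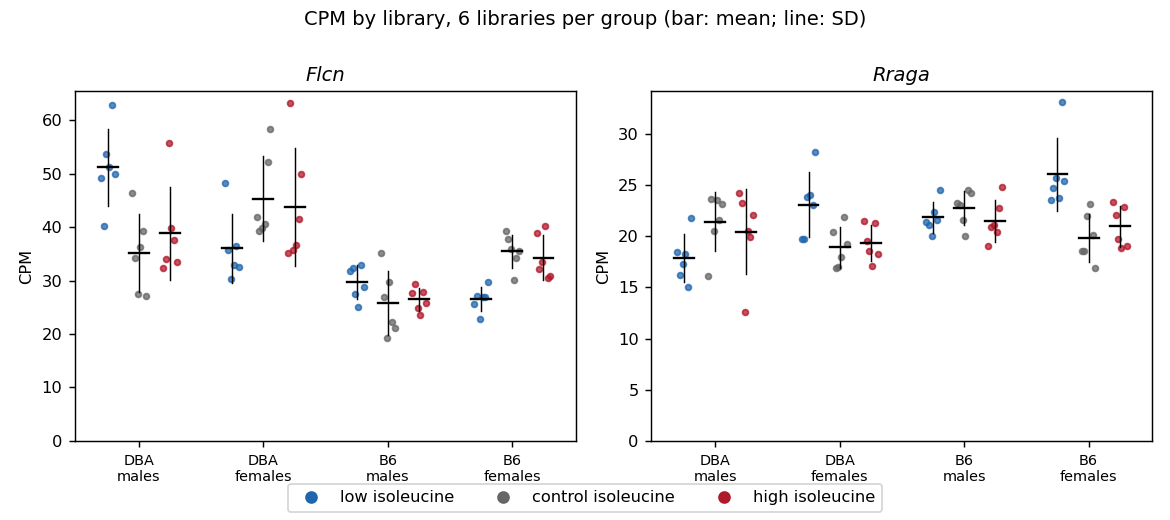
CPM by library (y axis, from 0) for Flcn and Rraga in the 4 classes (x axis), with low, control and high isoleucine side by side; points are libraries, bars means of 6 and lines SD. Flcn medians on low and control isoleucine are 50.6 and 35.3 CPM in DBA males and 27 and 35.7 CPM in B6 females.

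High isoleucine gave no member a detectable change in the mean of the classes. There edgeR called 0 of 32 members, as it did 0% of all genes, and DESeq2 called 0 members. By edgeR's unadjusted p 1 member, Lamtor3, fell under 0.05, at -0.12 ± 0.05 (adjusted p = 1). All 32 log2 fold changes lay between -0.12 and 0.12, and no member had the same sign in all 4 classes, against 7.76% of all genes. By class, edgeR called 0 members in DBA males (0.0134% of all genes, 2 members with an unadjusted p under 0.05), 0 in DBA females (0.00669%, 1 member) and 0 in B6 females (0%, 4 members), and DESeq2 called 0 in each. Set directly against each other, high and low isoleucine differed for 16 members, 10 higher and 6 lower on high, against 43.6% of all genes. This comparison shares its low libraries with the one above. Fnip2 stood at 0.60 ± 0.10 on high over low and 0.12 on high over control, Nprl3 at -0.23 ± 0.06 and 0.05, and Mios at -0.24 ± 0.05 and 0.00. Lamtor3 (-0.21 ± 0.05), Sesn1 (-0.19 ± 0.06) and Sesn3 (0.18 ± 0.07) passed on high over low without passing on low over control. Sesn3 no longer passed without B6 male high library 4 or 5 or DBA female low library 1, and Tsc2 (0.12 ± 0.05) no longer without B6 female low library 5 or B6 male high library 6.

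In B6 males some members differed on high isoleucine, and these calls depend on single libraries. Rictor fell by 30.3% against control (log2 fold change -0.52 ± 0.16, adjusted p = 0.041, lower than the control mean in 6 of 6 libraries), the 1 member called of 32, against 4.51% of all genes. The Rictor medians were 11 CPM on high and 13.5 CPM on control. The adjusted p of Rictor was 0.2 without B6 male high library 6, 0.1 without high library 3, and 0.08, 0.11 and 0.12 without control libraries 1, 2 and 4. Without control library 6 the count of members called was 5, and without high library 3 or 5, control library 5 or B6 female control library 4 it was 2.

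The effect of high isoleucine in B6 males minus its mean in the other 3 classes passed for 8 members, against 6.65% of all genes. B6 males were also the class with the most genes called on high isoleucine, 4.51% against at most 0.0134% in another class. This comparison shares those libraries, so its p-values are not independent of that result. Rictor (-0.64 ± 0.18), the mTOR inhibitor gene Deptor (-0.57 ± 0.16), Depdc5 (-0.48 ± 0.15), Mios (-0.42 ± 0.12), Wdr59 (-0.40 ± 0.13) and Tsc1 (-0.38 ± 0.12) were lower, with adjusted p between 0.026 and 0.046. Lamtor2 (0.42 ± 0.13) and Lamtor4 (0.47 ± 0.15) were higher, both at an adjusted p of 0.047. The B6 male medians on high and control isoleucine were 131 and 144 CPM for Deptor, 9.51 and 12.2 for Depdc5, 9.73 and 11.7 for Mios, 48 and 35.5 for Lamtor2 and 40 and 31 for Lamtor4. In every one of these members the high and control ranges of B6 males overlapped. No member passed without B6 male high library 6 or without control library 2; 2 passed without high library 1, 4 without high library 2, 3 without control library 3 and 1 without control library 4. Without the filter on low counts 2 passed, and with library quality weights 3. Under both, Rictor against control was not called. With libraries that share a title number treated as a replicate block, no member passed, and Rictor against control was not called. The highest count with a library left out was 9, without DBA male high library 3 or B6 male high library 5.

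Marker levels were summed in the same libraries. The 10 hepatocyte markers summed to 62000 to 94400 CPM (median 72600) in B6 males on high isoleucine and 83200 to 117000 CPM (median 91700) on control. Summed CPM of 4 adipose markers was 8.67 to 193 in B6 males on high isoleucine and 0.0879 to 9.84 on control, with Lep at 0 in both. Lymphocyte markers summed to 4.67 to 11.9 CPM on high and 3.73 to 6.5 CPM on control, and macrophage markers to 111 to 565 and 168 to 300 CPM. Their part in the change of the members was not tested.

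**Figure D4:**
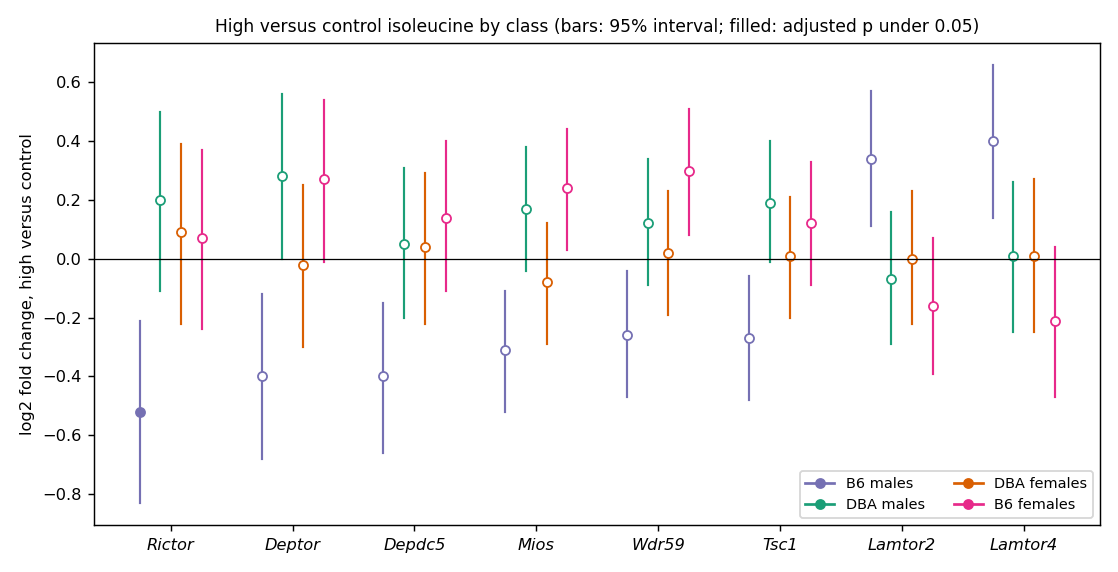
Log2 fold change of high over control isoleucine (y axis) for the 8 members whose effect in B6 males differed from the other 3 classes (x axis), by class; points are estimates, bars 95% intervals and filled points have an adjusted p under 0.05. B6 males lie at -0.52 for Rictor and 0.40 for Lamtor4, and the other classes between -0.08 and 0.30 for the 6 members that were lower.

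Some strain differences were larger than any change on low isoleucine in the mean of the classes. On the control diet 13 of 32 members differed between DBA and B6, 9 higher and 4 lower in DBA, against 45.4% of all genes. The median absolute log2 fold change was 0.165 for members and 0.252 for all genes. Deptor, an inhibitor of both mTOR complexes, was 44.8% lower in DBA livers (log2 fold change -0.86 ± 0.10, adjusted p = 5.3e-11). Each gene of the folliculin group was higher in DBA, with Fnip2 at 0.68 ± 0.14 (adjusted p = 2.5e-05), Fnip1 at 0.48 ± 0.11 (adjusted p = 3.4e-04) and Flcn at 0.40 ± 0.09 (adjusted p = 3.6e-04). The ranges of the strains overlapped for each. In DBA and B6 they were 18.4 to 37.2 and 8.87 to 22.5 CPM for Fnip2 and 17.8 to 37.5 and 15.3 to 28.7 CPM for Fnip1. For Flcn they were 27.1 to 58.4 and 19.3 to 39.2 CPM.

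Over the 12 control-diet libraries of each strain, Deptor lay between 49.5 and 83.3 CPM (median 66.3) in DBA and between 78.4 and 204 CPM (median 124) in B6. The ranges met only at their edges. By group, DBA males had Deptor at 54.8 to 120 (median 77) on low, 58.2 to 83.3 (median 65.2) on control and 61.7 to 112 (median 82.8) on high, and DBA females at 39 to 68.5 (median 53.9) on low, 49.5 to 80.8 (median 69.8) on control and 59 to 81.7 (median 64.5) on high. In B6 males Deptor was at 141 to 165 (median 148) on low, 131 to 204 (median 144) on control and 88.3 to 137 (median 131) on high, and in B6 females at 90.3 to 110 (median 95.7) on low, 78.4 to 116 (median 96.9) on control and 92.6 to 131 (median 116) on high. B6 males were the highest class and stood above B6 females on the low and control diets without overlap. Over both strains Deptor was 29.5% higher in males than in females on control (0.37 ± 0.10, adjusted p = 0.0034).

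Rragd, a close relative of Rragc, lay between 0.797 and 2.05 CPM (median 1.44) in DBA and 1.48 and 4.41 CPM (median 2.29) in B6 on control, a difference of -0.85 ± 0.16 (adjusted p = 9.9e-06). DBA males had Rragd at 0.985 to 1.72 (median 1.62) on low, 0.797 to 1.56 (median 1.04) on control and 0.866 to 1.9 (median 1.29) on high, and DBA females at 0.924 to 2.22 (median 1.56) on low, 1.35 to 2.05 (median 1.78) on control and 1.14 to 1.86 (median 1.26) on high. In B6 males Rragd was at 1.75 to 2.99 (median 2.33) on low, 1.48 to 3.08 (median 2.27) on control and 1.03 to 3.36 (median 1.88) on high, and in B6 females at 1.63 to 3.61 (median 2.15) on low, 2.13 to 4.41 (median 2.54) on control and 1.61 to 3.09 (median 2.39) on high. Within each class its diets overlapped. On the control diet all 6 B6 female libraries lay above all 12 DBA libraries, while B6 males overlapped with both DBA classes. Nprl3 lay between 16.7 and 24.7 CPM in DBA and between 9.68 and 15.6 CPM in B6, with no overlap (0.54 ± 0.08, adjusted p = 1.2e-07). Its opposite-strand neighbour Mpg was also higher in DBA, by 0.48 ± 0.08 (adjusted p = 2.4e-07), and the part of shared bases in the Nprl3 value was not tested.

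Of the remaining members, Lamtor4 (0.40 ± 0.09), Rictor (0.30 ± 0.11), Mtor (0.29 ± 0.09), Tsc1 (0.27 ± 0.08) and Lamtor1 (0.15 ± 0.06) were higher in DBA, and Lamtor3 (-0.32 ± 0.07) and Tsc2 (-0.22 ± 0.07) lower. Lamtor1 did not pass without B6 male control library 2 or 4 or B6 female control library 4. Lamtor1 shares 18.66% of its exon length with Lrrc51 on the opposite strand, which was higher in DBA by 1.06 ± 0.13 (adjusted p = 1.2e-10). Reads of both strains were aligned to a single reference, so a strain difference can include reads that align less well in DBA, and this was not tested. Macrophage markers were lower in DBA for 10 of 12 genes, against 22.5% of all genes. On the control diet their summed levels were 105 to 312 CPM in DBA and 168 to 666 CPM in B6. Cholangiocyte markers summed to 17.5 to 38.3 CPM in DBA and 42.2 to 129 CPM in B6, without overlap. Sums were higher in DBA for pancreas markers (15.9 to 53.9 against 3.66 to 6.84 CPM). Blood cell markers summed to 140 to 973 CPM in DBA and 125 to 311 CPM in B6. The part of these markers in the strain differences was not tested.

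**Figure D5:**
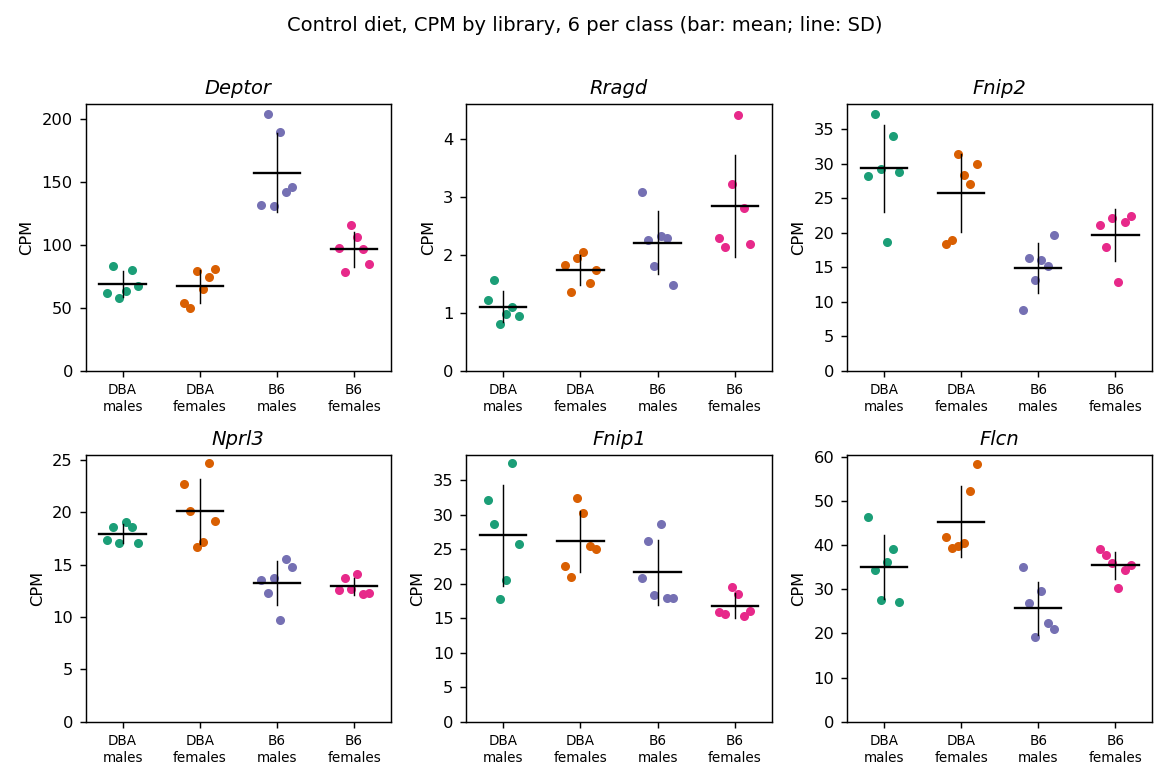
CPM by library on the control diet (y axis, from 0) for Deptor, Rragd, Fnip2, Nprl3, Fnip1 and Flcn in DBA males, DBA females, B6 males and B6 females (x axis); points are libraries, bars means of 6 and lines SD. The 12 DBA libraries lie above the 12 B6 libraries for Nprl3 and mostly below them for Deptor.

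Between the sexes on the control diet, 5 of 32 members differed, against 26.2% of all genes. Besides Deptor and Flcn, Rheb (0.22 ± 0.07, adjusted p = 0.017) and Sec13 (0.25 ± 0.09, adjusted p = 0.044) were higher in males, and Rragd (-0.50 ± 0.16, adjusted p = 0.015) was lower. Rheb and Sec13 did not pass without B6 male control library 1, nor Sec13 without control library 2. Markers of macrophages (8 of 12), sinusoidal endothelium (6 of 8), stellate cells (6 of 8) and lymphocytes (6 of 7) were lower in males. Of all genes, 12.9% were lower in males. The part of these markers in the members' values was not tested.

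Other genes of the pathway, listed by role and not by their response, also included changes in both directions on low isoleucine. Of 45 listed genes 44 were tested, and 10 were higher and 6 lower in the mean of the classes, against 37.8% of all genes called in either direction, with a median log2 fold change of 0.00. Among substrates and effectors 4 of 15 rose and 1 fell. Pdcd4, an inhibitor of translation that S6 kinase marks for destruction, fell by 20.8% (log2 fold change -0.34 ± 0.06, adjusted p = 6.1e-06, 22 of 24 libraries below the control mean). Rps6, the ribosomal protein that S6 kinase phosphorylates, rose by 20.5% (0.27 ± 0.05, adjusted p = 5.8e-05). The annotation holds pseudogenes of Rps6, between which reads may be split. Larp1, which binds the mRNAs of ribosomal proteins, rose by 13.2% (0.18 ± 0.04, adjusted p = 4.1e-04).

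Among the other sensors and the KICSTOR complex, which anchors GATOR1 at the lysosome, 4 of 10 rose and 1 fell. The KICSTOR gene Itfg2 rose by 0.21 ± 0.05 (adjusted p = 7.9e-04), and Lars, the leucyl-tRNA synthetase gene, by 0.21 ± 0.06 (adjusted p = 0.0064). Of the other mTORC2 subunits 2 of 3 fell, with Mapkap1 at -0.21 ± 0.04 (adjusted p = 7.2e-05). Of the upstream kinases and inhibitors 2 of 9 rose and 1 fell, among them Prkaa1, a catalytic subunit gene of AMPK (0.20 ± 0.06, adjusted p = 0.0034). Ddit4, a stress-induced inhibitor of mTORC1, rose 1.56-fold (log2 fold change 0.64 ± 0.21, adjusted p = 0.012), but only 17 of 24 libraries lay above the control mean. In the lysosomal proton pump 1 of 5 genes fell, and none of the 2 tested genes of the other Rag, TSC and RHEB group passed.

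Cell type markers moved with the low diet too. Over all genes tested, 17.8% were called higher and 20% lower. Macrophage markers fell for 9 of 12 genes, with summed levels of 71.9 to 313 CPM on low and 105 to 666 CPM on control isoleucine. Their median sums on low and control were 173 and 172 CPM in DBA males and 178 and 217 in DBA females. In B6 males they were 122 and 219 CPM, and in B6 females 254 and 354. Sinusoidal endothelial markers rose for 6 of 8 genes (214 to 341 CPM on low and 154 to 342 CPM on control), and hepatocyte markers for 5 of 10. Stellate cell (2 of 8), lymphocyte (1 of 7), blood cell (2 of 4), adipose (1 tested) and pancreas (1 tested) markers included genes that fell, and cholangiocyte markers 1 of 5 each way. As sums, stellate cell and blood cell markers did not fall, with medians over all classes of 361 and 281 CPM on low and 348 and 276 CPM on control. Median sums were lower on low isoleucine for lymphocyte (4.19 and 5.42 CPM) and pancreas markers (6.31 and 11.4 CPM). The part of these shifts in the members' values was not tested.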

How the data were processed

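Liver RNA of 72 libraries was measured, and groups came from the strain, sex and diet labels. The authors deposited expected counts per Ensembl gene from reads aligned to GRCm38.p5, per the labels' protocols; aligner, counter and strand setting: not given in the sources used here. R 3.4.3, limma and edgeR are named in the submitters' processing notes. One label names a polyA-enriched stranded preparation and another a total RNA guide. In the deposited expected counts 9.56% of nonzero values were not whole; they were rounded. The table has 50308 lines, 1 of them incomplete. Symbols and exon lengths came from GENCODE M21 (GRCm38), which matched all 50307 identifiers used. The deposited fold change tables were not used here.

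Genes with low counts were removed with filterByExpr by group. TMM scaling (factors 0.84 to 1.14) and edgeR's robust quasi-likelihood fit of 12 group means followed (common biological coefficient of variation 0.21), with 16 comparisons and Benjamini-Hochberg adjustment over 14954 genes. The SE is the log2 fold change divided by the square root of its F statistic. Scripts were tested on simulated data. Alternatives were DESeq2, RLE size factors, no filter, the title number as a replicate block and library quality weights (both limma voom), and omission of B6 female control library 4. Another 15 omissions of single libraries were chosen after seeing the data. Members and lists were chosen with earlier results of these data known. All members are named; values in every group are given for those called on low isoleucine and among the 8 largest changes there, in a difference of effects, or among the 4 largest strain differences. Of the other pathway genes, those named are the 8 lowest p and any called with at least a 1.5-fold change, except an item that is not reported here. Class values of Rps6kb1, Rptor and Seh1l, and the omissions given for single members, were chosen after seeing their values. DESeq2 1.42.0, limma 3.58.1 and edgeR 4.0.16 were run in R 4.3.3.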

Additional observations from a re-analysis of the deposited data

Results flagged for a closer look

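In 192 groups of 6 libraries (16 members, 12 groups each), 14 had a highest or lowest library far from the other 5 by Dixon's criterion; chance flags about 1 in 20 groups. DBA male high library 3, which also correlated poorly with its group, held 3 of them: Rraga at 12.6 CPM (next 19.9), Flcn at 55.8 CPM (next 39.8) and Lamtor4 at 85.7 CPM (next 51.8). In other DBA groups, Depdc5 reached 11.6 CPM in male low library 1, Flcn 48.3 CPM in female low library 1, Deptor 81.7 CPM in female high library 1 and Rragd 1.86 CPM in female high library 2. Among B6 males, Tsc1 was at 22.3 CPM in low library 5, below the rest, and Nprl2 at 17.8 CPM in control library 1, above the rest. Among B6 females, Rictor was at 14 CPM in low library 3 and 16.8 CPM in control library 4, Nprl2 at 19.6 CPM in control library 1 and Rraga at 33.1 CPM in low library 5, all above the rest of their groups. Lamtor4 was at 26.4 CPM in B6 female low library 2, below the rest.

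Effects that differed between groups by a test of the difference were as follows. The low effect, male minus female, differed for Flcn by 0.75 ± 0.13 and for Rraga by -0.50 ± 0.10 (SE, log2 scale). The high effect of B6 males, minus the mean of the other 3 classes, differed for Rictor by -0.64, Deptor by -0.57, Depdc5 by -0.48, Mios by -0.42, Wdr59 by -0.40, Tsc1 by -0.38, Lamtor2 by 0.42 and Lamtor4 by 0.47.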

How the results depend on the processing

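The number of members called stayed within 1.5 times the reported count under every alternative run for low against control and high against low in the mean of the classes and for DBA against B6; the exceptions elsewhere were these. Without the filter on low counts the counts were 6 for low isoleucine in B6 females, 0 for high isoleucine in B6 males, 2 for the B6 male difference of the high effect and 3 for males against females. DESeq2 gave 5 for low isoleucine in DBA females and 3 for high isoleucine in B6 males. With library quality weights the counts were 7 for low isoleucine in DBA females, 4 for B6 males, 7 for the sex difference of the low effect, 0 for high isoleucine in B6 males and 3 for the B6 male difference. Without B6 female control library 4, 2 members passed for high isoleucine in B6 males. With libraries left out in turn, counts ran from 3 to 6 for low isoleucine in DBA females, 1 to 2 in B6 males and 6 to 11 in B6 females, 0 to 5 for high isoleucine in B6 males and 0 to 9 for the B6 male difference. Where no cause is named, the cause was not tested.

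Title numbers recur for 2 libraries each within a group, and the labels do not say what they mark. Deviations of the 36 same-number pairs from their group mean correlated at a median of -0.027 (6 over 0.1), against -0.248 for 144 other pairs within groups. Deviations from a shared mean are negatively correlated by construction, so the 144 other pairs are the reference. Same-number libraries were thus more alike than other libraries of their group, and the main fit treats all 6 as independent. With the block, 27 results of single members no longer passed, 69 kept their call and 2 changed sign. With the title number as a replicate block (consensus correlation 0.244), counts were 12 for low isoleucine in the mean, 3 in DBA males, 2 in DBA females, 1 in B6 males and 4 in B6 females, 2 for the sex difference, 0 for high isoleucine in B6 males, 0 for the B6 male difference, 12 for DBA against B6 and 3 for males against females.

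Members near 0 on low isoleucine in the mean changed sign, none of them called: Mlst8 to 0.0029 without the filter and 0.0031 with quality weights, Flcn to 0.0048 without the filter, 0.0038 with the block and 0.04 with quality weights, and Rragd to -0.0008 with DESeq2, -0.03 with the block and -0.0029 with quality weights. With libraries left out in turn they ranged from -0.03 to 0.02 (Mlst8), -0.03 to 0.03 (Flcn), -0.04 to 0.05 (Rragd), -0.0004 to 0.04 (Rragc) and -0.0046 to 0.03 (Fnip1). Rragd, with 0.797 to 4.41 CPM, is the member whose depth limits precision most.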
